A study of Mus musculus with 5 samples.

Results

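Striatal identity transcription factors are the DNA-binding proteins that specify striatal neurons in the embryo or mark them in the adult. A list of 34 such genes was looked up by gene name in a table of 26369 genes, and 32 were found. Gsx2, a homeodomain factor of striatal progenitors, was not matched by name, and Nolz1 is a RefSeq synonym of Zfp503 and was counted once under that name. All 32 passed the filter on low counts, so no member was lost to it, and the lowest count of any member in any library was 10.

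The counts came from total RNA of mouse striatum, sequenced in 3 libraries from wild-type (WT) mice and 2 from R6/1 mice. Both groups had a mixed CBA and C57BL/6 background. R6/1 mice carry a transgene, exon 1 of the HD gene, whose CAG expansion the labels put at 115, and the WT mice carry none. The series asks how loss of striatal gene expression in Huntington's disease relates to super-enhancers and paused RNA polymerase II. The sources used here give no age, sex, litter or batch. The library titles carry different numbers, but no label says that each library is a different animal. The p-value of a gene here sets the difference between the groups against the spread of libraries within them, and part of that spread may be technical.

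Most neurons of the striatum are GABAergic medium spiny neurons, which send either the direct or the indirect pathway of the basal ganglia. They arise from the lateral ganglionic eminence, where homeodomain factors of the DLX family and their partners set up the lineage. Later factors, among them BCL11B, FOXP1, MEIS2, EBF1 and ISL1, drive differentiation into the mature subtypes, and several of them stay on in adult neurons.

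The tissue label was checked against 19 medium spiny neuron genes found in the table. Their summed level was 11780.4 to 13684 CPM in the WT libraries and 3358 to 3437 CPM in the R6/1 libraries, where CPM is the count scaled to a common, TMM-normalized library total. The lowest count of any of the 19 in any library was 519. All 19 were lower in R6/1 by edgeR's quasi-likelihood test at an adjusted p below 0.05, their median log2 fold change being -1.81, and 17 to 19 were lower under the alternatives tried. In bulk tissue, fewer cells of a type and less RNA per cell cannot be told apart. Total counts were 19630036 to 23046266 in WT and 29871306 to 34379064 in R6/1, so depth and genotype go together. WT replicates 1 and 2 stood apart from the other libraries in 8 choroid plexus genes, which summed to 3649.8 and 3559.8 CPM there and to 97.1 CPM in WT replicate 3, 125 CPM in R6/1 replicate 1 and 46.2 CPM in R6/1 replicate 2. The members' counts are therefore given below also without those libraries.

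Of the 32 members, 7 were lower in R6/1, 2 were higher and 23 were not called. The lower members were Myt1l, Foxo1, Bcl11b, Klf16, Meis2, Foxp1 and Mef2c, and the higher ones were Foxp4 and Ebf1. The called decreases ran from a log2 fold change of -0.99 to -0.35, and the called increases were 0.58 and 0.64. Across all 17202 genes tested, 12.8% were called lower, 9.72% higher and 22.6% in either direction, against 21.9% of members lower and 6.25% higher. The median log2 fold change of the members was 0.07, beside -0.01 for all tested genes, with 14 members below 0 and 18 above. Leaving out WT replicates 1 and 2 together left 7 members lower and 1 higher, beside 11.1% and 8.22% of all genes tested in that fit, the lone WT library being assumed to vary like the R6/1 pair. Without R6/1 replicate 2, 4 members were called lower and 0 higher (10 members had an unadjusted p below 0.05), and over all genes the calls also dropped, to 4.37% lower and 1.76% higher. Without R6/1 replicate 1 the numbers were 7 and 0 (12 members), beside 4.92% and 1.58% of all genes. Leaving out WT replicate 1 or WT replicate 3 left 1 member higher, beside 5.45% and 4.84% of all genes. With the mean log2 level of the choroid plexus genes as a covariate, 4 were lower and 0 were higher in edgeR's test, with 10 at an unadjusted p below 0.05, beside 6.73% and 3.21% of all genes. The covariate was high in WT libraries alone, so it goes in part with genotype, and a lost call need not mean a smaller change. Foxp1, Foxp4, Ebf1, Mef2c and Foxo1 lost their calls, at log2 fold changes of -0.31, 0.74, 0.69, -0.32 and -0.84. Without the covariate these were -0.39, 0.64, 0.58, -0.35 and -0.86.

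Both R6/1 libraries lay below all 3 WT libraries for 10 members and above them for 5, while 17 members overlapped. For all tested genes these shares were 26.9% below and 27.2% above. The authors' deposited table gives an adjusted p below 0.05 for 10 members, the 9 named above and Foxp2.

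**Figure D1:**
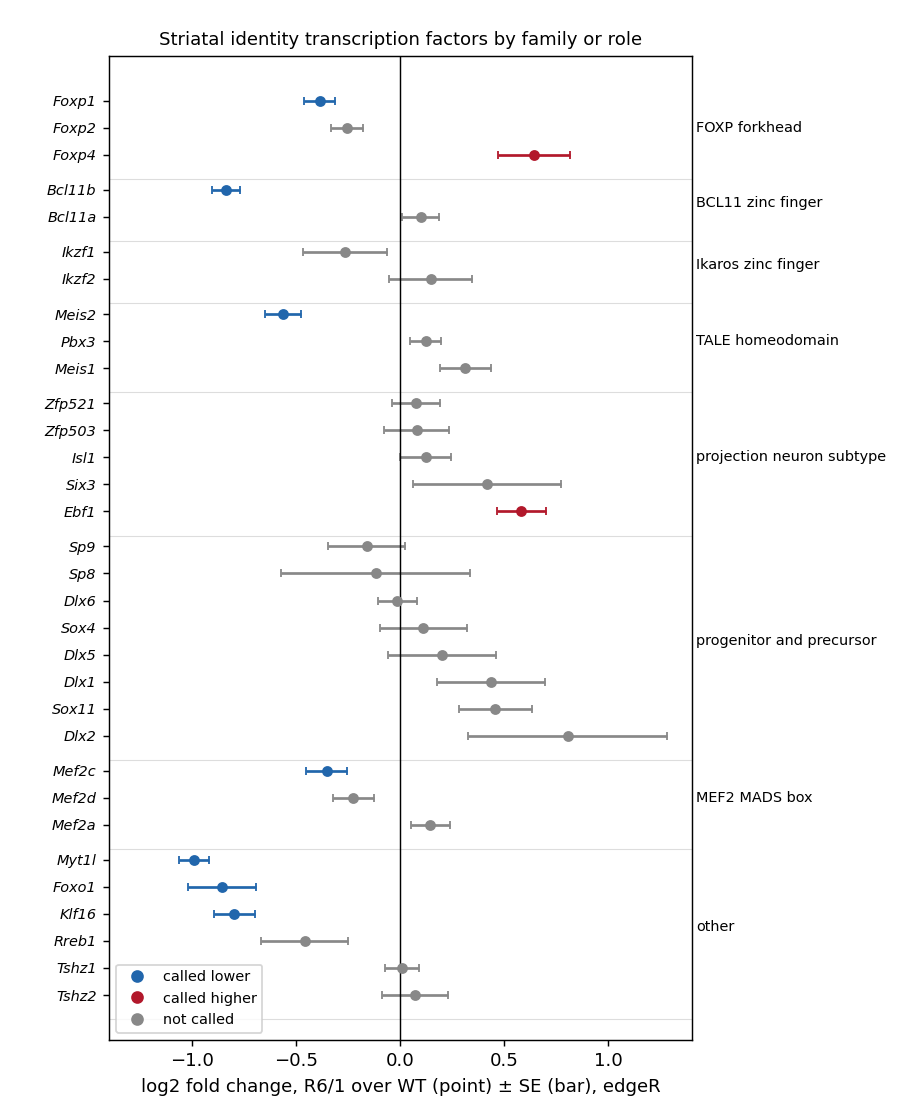
Log2 fold change of R6/1 over WT in edgeR (x axis, points) with its SE (bars) for the 32 members, grouped by family or role (y axis) and coloured by call. The 7 members called lower lie between -0.99 and -0.35, and bars are wide for members with few counts, such as Dlx2, Sp8 and Six3.

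BCL11B, also called CTIP2, is a zinc finger repressor needed for medium spiny neurons to differentiate and to form the patch compartment. Bcl11b (ENSMUSG00000048251) stood at 326, 330.05 and 338 CPM in the WT libraries and at 193 and 178 CPM in R6/1. The R6/1 libraries lay far below every WT library, and the WT libraries lay close together. The mean fell 1.79-fold, from 332 ± 6.13 CPM (SD, n = 3) to 186 ± 9.99 CPM (SD, n = 2). The log2 fold change was -0.84 (SE 0.07, 95% CI -0.996 to -0.68, edgeR adjusted p = 0.000434). Its relative Bcl11a (ENSMUSG00000000861), a zinc finger factor of many forebrain neurons, was at 77.4, 88.5 and 77.2 CPM in WT and 89.6 and 83.7 CPM in R6/1. The groups overlapped, with a log2 fold change of 0.10 (95% CI -0.11 to 0.31, edgeR adjusted p = 0.462).

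FOXP proteins are forkhead repressors that bind DNA as dimers with one another, and FOXP1 and FOXP2 are abundant in medium spiny neurons. Foxp1 (ENSMUSG00000030067) was at 445, 446 and 417 CPM in WT and at 349 and 317 CPM in R6/1, without overlap. Its mean fell 1.31-fold, from 436 ± 16.2 to 333 ± 22.6 CPM, with a log2 fold change of -0.39 (SE 0.07, 95% CI -0.56 to -0.22, edgeR adjusted p = 0.0113). The call was lost without R6/1 replicate 2 (edgeR adjusted p = 0.108) and with the choroid plexus covariate (edgeR adjusted p = 0.0838).

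Foxp2 (ENSMUSG00000029563), known for its part in vocal and motor learning, was at 157, 139.95 and 145 CPM in WT and 126 and 121 CPM in R6/1. Both R6/1 values lay below the lowest WT value, but the gene was not called, at a log2 fold change of -0.26 (95% CI -0.44 to -0.08, edgeR adjusted p = 0.0521). It lay on the other side of the threshold without WT replicate 2 (edgeR adjusted p = 0.0293), by DESeq2 (adjusted p = 0.0347) and by limma-voom (adjusted p = 0.0484).

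Foxp4 (ENSMUSG00000023991), the least abundant of these forkhead genes here by CPM, moved the other way. It was at 6.50, 5.64 and 5.68 CPM in WT and 10.5 and 8.06 CPM in R6/1. Both R6/1 libraries were above every WT library and apart from each other. The mean rose 1.56-fold, from 5.94 ± 0.483 to 9.27 ± 1.71 CPM (log2 fold change 0.64, SE 0.17, 95% CI 0.23 to 1.05, edgeR adjusted p = 0.0379). Leaving out any library ended the call, with an edgeR adjusted p of 0.0561, 0.0565 and 0.0984 without WT replicate 1, 2 or 3, 0.244 without R6/1 replicate 1 and 0.0699 without R6/1 replicate 2. The call was also lost without WT replicates 1 and 2 together (edgeR adjusted p = 0.0749) and with the choroid plexus covariate (0.110).

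MEIS and PBX proteins are TALE homeodomain factors that bind DNA together and act as partners of other homeodomain proteins. Meis2 (ENSMUSG00000027210), a marker of the lateral ganglionic eminence that persists in striatal neurons, was at 518, 453 and 472 CPM in WT and at 344 and 307 CPM in R6/1. The groups were well apart. The mean fell 1.48-fold, from 481 ± 33.4 to 326 ± 25.8 CPM (log2 fold change -0.56, SE 0.09, 95% CI -0.77 to -0.36, edgeR adjusted p = 0.00541), and the call was lost without R6/1 replicate 2 (edgeR adjusted p = 0.0614).

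Meis1 (ENSMUSG00000020160) was at 37.9, 31.3 and 40.3 CPM in WT and 42.5 and 48.2 CPM in R6/1. Its R6/1 values were both above the WT values, but it was not called, at a log2 fold change of 0.31 (95% CI 0.03 to 0.60, edgeR adjusted p = 0.108). Pbx3 (ENSMUSG00000038718) was at 73.9 to 75.8 CPM in WT and 78.0 and 85.1 CPM in R6/1, again without overlap and without a call (log2 fold change 0.12, edgeR adjusted p = 0.270). With library totals alone in place of TMM normalization, which moved the median of all tested genes from -0.01 to 0.11, both of these passed the threshold (edgeR adjusted p = 0.0369 and 0.0485).

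MEF2 factors are MADS box proteins that switch on genes in response to neuronal activity and limit the number of excitatory synapses. Mef2c (ENSMUSG00000005583) was at 281, 337 and 307 CPM in WT and at 257 and 226 CPM in R6/1. The higher R6/1 library came close to the lowest WT library without reaching it. Its mean fell 1.28-fold, from 308 ± 28.3 to 241 ± 22.1 CPM (log2 fold change -0.35, SE 0.10, 95% CI -0.59 to -0.12, edgeR adjusted p = 0.0407). The call was lost without WT replicate 2 (edgeR adjusted p = 0.0503), WT replicate 3 (0.0918), R6/1 replicate 1 (0.0895) or R6/1 replicate 2 (0.250). It was also lost with library totals alone (0.108) and with the choroid plexus covariate (0.182).

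Mef2a (ENSMUSG00000030557) was at 244, 286 and 236 CPM in WT and 288 and 275 CPM in R6/1. The groups overlapped, at a log2 fold change of 0.14 (95% CI -0.08 to 0.36, edgeR adjusted p = 0.307), and without WT replicate 2 the gene passed as higher (edgeR adjusted p = 0.0375). Mef2d (ENSMUSG00000001419) was at 82.25, 90.5 and 92.9 CPM in WT and 82.15 and 69.2 CPM in R6/1. Its groups barely missed each other, and it was not called (log2 fold change -0.23, 95% CI -0.46 to 0.01, edgeR adjusted p = 0.144). Mef2c is also expressed in microglia, for which 10 marker genes summed to 410 to 482 CPM in WT and 423 to 456 CPM in R6/1, overlapping ranges. By edgeR none of the 10 was called and 0 had an unadjusted p below 0.05, and DESeq2 and limma-voom likewise called 0, while 1 was lower without WT replicate 2. Microglia are not the only other cells the dissection could hold. The cortical projection neuron genes described below summed to 178, 483 and 337 CPM in WT and 254 and 171 CPM in R6/1. The part of either cell type in the level of Mef2c was not tested.

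Myt1l had the most negative log2 fold change of the members with all libraries in the fit, whereas without R6/1 replicate 1 Foxo1 was at -1.18 and Myt1l at -1.06. MYT1L is a zinc finger protein that keeps genes of other cell lineages repressed in neurons. Myt1l (ENSMUSG00000061911) was at 444, 452 and 456 CPM in WT and at 237 and 216 CPM in R6/1. Both R6/1 values were far below all WT values. Its mean fell 1.99-fold, from 451 ± 6.21 to 226 ± 15.3 CPM (log2 fold change -0.99, SE 0.07, 95% CI -1.16 to -0.83, edgeR adjusted p = 0.000282).

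KLF16 is a Krüppel-like zinc finger protein that binds GC-rich DNA and was described in dopamine receptor-expressing striatal neurons. Klf16 (ENSMUSG00000035397) was at 41.9, 47.8 and 40.5 CPM in WT and at 24.5 and 25.4 CPM in R6/1. Its R6/1 libraries were nearly equal and below all WT libraries, and the mean fell 1.74-fold, from 43.4 ± 3.85 to 24.9 ± 0.688 CPM (log2 fold change -0.80, SE 0.10, 95% CI -1.03 to -0.57, edgeR adjusted p = 0.00241). Bcl11b, Klf16 and Myt1l were the 3 members called in all 12 alternative analyses.

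FOXO1 is a forkhead activator held out of the nucleus by insulin and growth factor signalling. Foxo1 (ENSMUSG00000044167) was at 50.2, 51.7 and 53.6 CPM in WT and at 34.3 and 22.8 CPM in R6/1. The R6/1 libraries differed from each other more than the WT libraries did, and both lay below them. The mean fell 1.82-fold, from 51.8 ± 1.69 to 28.5 ± 8.15 CPM (log2 fold change -0.86, SE 0.16, 95% CI -1.24 to -0.48, edgeR adjusted p = 0.0116). With the choroid plexus covariate the call was lost, at a log2 fold change of -0.84 (edgeR adjusted p = 0.0622). Foxo1 is also expressed in endothelial cells, for which 8 marker genes summed to 200.1 to 223 CPM in WT and 219.5 to 230.1 CPM in R6/1. By edgeR 0 of these 8 were called and 2 had an unadjusted p below 0.05, while DESeq2 called 1 lower and 1 higher and limma-voom called 0. Without WT replicate 2, edgeR called 2 lower and 2 higher.

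Rreb1 (ENSMUSG00000039087), a zinc finger factor that acts downstream of RAS, was at 29.1, 36.7 and 28.8 CPM in WT and 28.3 and 17.4 CPM in R6/1. Only R6/1 replicate 2 lay well below the WT libraries, and the gene was not called (log2 fold change -0.46, 95% CI -0.95 to 0.03, edgeR adjusted p = 0.156). Without R6/1 replicate 1 it passed as lower (edgeR adjusted p = 0.0488). The teashirt zinc finger genes were level between the groups. Tshz1 (ENSMUSG00000046982), a factor of olfactory bulb interneuron precursors, was at 42.9 to 47.7 CPM in WT and 45.6 and 46.3 CPM in R6/1, a log2 fold change of 0.01 (95% CI -0.19 to 0.20). Tshz2 (ENSMUSG00000047907) had 11.5 to 14.1 CPM in WT and 11.8 and 15.2 CPM in R6/1 (log2 fold change 0.07, 95% CI -0.30 to 0.44).

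**Figure D2:**
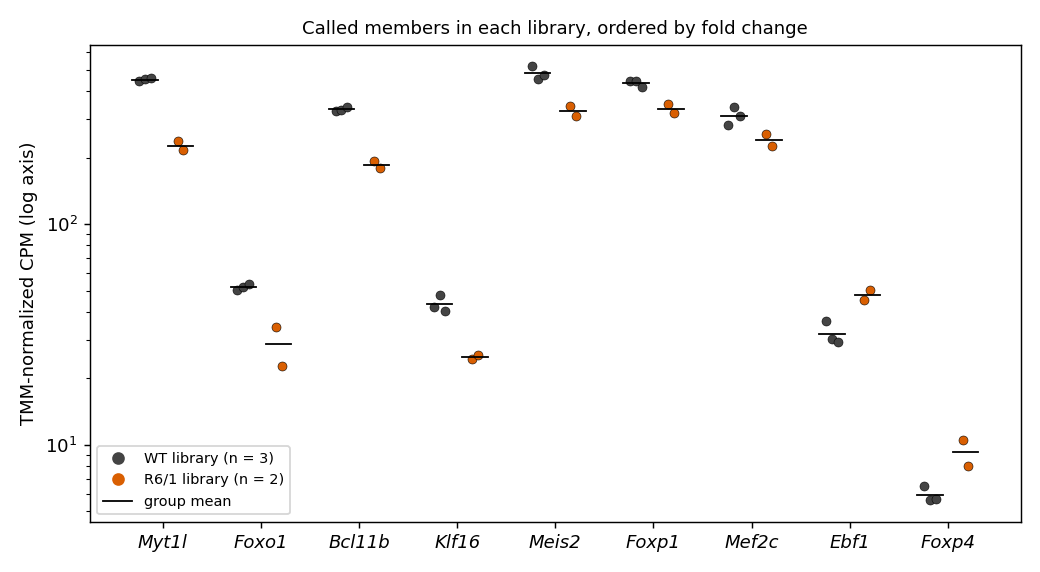
TMM-normalized CPM (y axis, log scale) of the 9 called members (x axis, ordered by fold change) in the 3 WT and 2 R6/1 libraries, with points for libraries and lines for group means. For every gene both R6/1 points lie on the same side of all WT points, as for Myt1l, with WT at 444 to 456 CPM and R6/1 at 216 and 237 CPM.

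Factors tied to the subtypes of projection neurons gave 1 call among 5 tested, Ebf1, which was higher, a share near the 22.6% of all tested genes called in either direction. EBF1 is a helix-loop-helix factor needed for direct-pathway neurons to differentiate. Ebf1 (ENSMUSG00000057098) was at 36.6, 30.2 and 29.1 CPM in WT and at 45.3 and 50.4 CPM in R6/1. Both R6/1 libraries were above every WT library. The mean rose 1.497-fold, from 31.9 ± 4.03 to 47.8 ± 3.60 CPM (log2 fold change 0.58, SE 0.12, 95% CI 0.31 to 0.85, edgeR adjusted p = 0.0140). The call was lost without R6/1 replicate 1 (edgeR adjusted p = 0.0589), without R6/1 replicate 2 (0.108) and with the choroid plexus covariate (0.0514). The log2 fold changes in these 3 fits were 0.66, 0.50 and 0.69.

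Isl1 (ENSMUSG00000042258), a LIM homeodomain factor of direct-pathway and cholinergic neurons, was at 23.1, 18.01 and 21.2 CPM in WT and 21.99 and 23.3 CPM in R6/1. The groups overlapped, at a log2 fold change of 0.12 (95% CI -0.16 to 0.41, edgeR adjusted p = 0.502). The 6 cholinergic neuron genes found summed to 72.5 to 81.0 CPM in WT and 23.9 to 27.6 CPM in R6/1, and 3 of the 4 tested were lower, or 2 without either R6/1 library. Over all tested genes 12.8% were called lower. Zfp521 (ENSMUSG00000024420), a zinc finger protein known to bind and inhibit EBF1, was at 25.8 to 31.8 CPM in WT and 28.0 and 31.6 CPM in R6/1 (log2 fold change 0.08, 95% CI -0.20 to 0.35).

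Six3 (ENSMUSG00000038805), a homeodomain factor that promotes the indirect-pathway fate, had 12, 13 and 22 counts in WT and 40 and 27 in R6/1, or 0.538, 0.685 and 0.993 CPM against 1.11 and 0.861 CPM. At this depth its interval spanned a log2 fold change of -0.42 to 1.25. Zfp503 (ENSMUSG00000039081), the striatal progenitor zinc finger protein also called NOLZ1, was at 8.71 to 10.6 CPM in WT and 9.24 and 10.9 CPM in R6/1 (log2 fold change 0.08, 95% CI -0.29 to 0.44).

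Among the 8 factors of progenitors and young neurons, 0 were called by edgeR, DESeq2 or limma-voom, and 1, Sox11, had an unadjusted p below 0.05. Over all genes tested by edgeR, 22.6% were called in either direction. DLX1, DLX2, DLX5 and DLX6 are the homeodomain factors that direct GABAergic fate in the ganglionic eminences. Dlx6 (ENSMUSG00000029754) was at 21.6, 23.5 and 21.2 CPM in WT and 22.4 and 21.3 CPM in R6/1, the groups lying within each other (log2 fold change -0.01, 95% CI -0.24 to 0.21, edgeR adjusted p = 0.931). Dlx1 (ENSMUSG00000041911) was at 4.47 to 6.32 CPM in WT and at 9.15 and 5.45 CPM in R6/1 (log2 fold change 0.44, 95% CI -0.17 to 1.04). Dlx2 (ENSMUSG00000023391) had 17, 24 and 10 counts in WT and 69 and 29 in R6/1, and its interval of -0.32 to 1.93 was the widest among the DLX genes. Dlx5 (ENSMUSG00000029755) was at 2.08 to 3.31 CPM in WT and 3.63 and 2.74 CPM in R6/1 (log2 fold change 0.20, 95% CI -0.41 to 0.81).

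SP8 and SP9 are zinc finger factors that promote the indirect-pathway fate and interneuron development. Sp9 (ENSMUSG00000068859) was at 8.80 to 13.1 CPM in WT and 10.3 and 9.66 CPM in R6/1 (log2 fold change -0.16, 95% CI -0.60 to 0.27). Sp8 (ENSMUSG00000048562) had 25, 34 and 30 counts in WT and 69 and 21 in R6/1, so that the R6/1 libraries lay on either side of the WT range in CPM (1.91 and 0.669 against 1.12 to 1.79).

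SOX4 and SOX11 drive the early programme of neuronal differentiation. Sox11 (ENSMUSG00000063632) was at 6.81, 8.01 and 6.86 CPM in WT and 11.3 and 8.54 CPM in R6/1. Its groups did not overlap, and it was not called (log2 fold change 0.46, 95% CI 0.04 to 0.87, edgeR adjusted p = 0.104), but it passed with library totals alone (edgeR adjusted p = 0.0464). Sox4 (ENSMUSG00000076431) was at 12.6 to 16.6 CPM in WT and 19.2 and 12.3 CPM in R6/1, a wide overlap (log2 fold change 0.11, 95% CI -0.38 to 0.60). R6/1 replicate 1 was above R6/1 replicate 2 in CPM for 24 of the 32 members and below it for 8. This order was not counted over all genes, so it is not read as a trait of the members.

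Markers of neuroblasts and progenitors, cells of the nearby subventricular zone, were set beside these genes. The 13 markers summed to 452 to 486 CPM in WT and 451 to 491 CPM in R6/1, and none was without counts in every library. Of the 13, 2 were higher and 0 lower, and their median log2 fold change was 0.15. The share called, 15.4%, was below the 22.6% of all tested genes. For the 0 lower, 5 of the 13 had an unadjusted p below 0.05 in either direction by edgeR, and DESeq2 called 1 lower and limma-voom 0. Single libraries decided the direction of the median, which was -0.20 without R6/1 replicate 1 (1 lower, 1 higher) and -0.0014 without WT replicate 3 (1 higher). Without WT replicate 2, 2 were lower and 3 higher, and without WT replicate 1, 1 was higher. Of the 13 fold changes, 6 were below 0 and 7 above. They ran from -0.87 to 1.07, and the genes at both ends were not called. Dcx and Pax6 are named because they were the 2 called. Dcx, which binds microtubules in migrating neuroblasts, rose from 43.5 ± 0.601 to 58.0 ± 6.43 CPM (edgeR adjusted p = 0.0182). Pax6, a progenitor homeodomain factor, rose from 7.10 ± 0.250 to 14.2 ± 0.553 CPM (edgeR adjusted p = 0.00277). Their part in the levels of the DLX and SOX members was not tested.

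Ikaros zinc finger proteins are best known in lymphocytes, and IKZF1 and IKZF2 also act in late-born striatal neurons. Ikzf1 (ENSMUSG00000018654) was at 8.601, 6.11 and 7.89 CPM in WT and 6.96 and 5.58 CPM in R6/1 (log2 fold change -0.27, 95% CI -0.74 to 0.21). Ikzf2 (ENSMUSG00000025997) was at 24.0, 14.7 and 21.2 CPM in WT and 24.2 and 20.02 CPM in R6/1 (log2 fold change 0.14, 95% CI -0.33 to 0.62). Both overlapped between the groups. Neither was called by edgeR, DESeq2 or limma-voom.

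Read by level, 5 of the 6 members with a WT mean of 200 CPM or more were lower, all but Mef2a, beside 39% of the 1015 tested genes at that level. Leaving out R6/1 replicate 2 left 2 of these 6 lower, because Foxp1, Meis2 and Mef2c lost their calls, beside 20.4% of the genes at that level, and with the choroid plexus covariate 3 of 6 were lower, beside 28.1%. Below 10 CPM, 1 of 9 members was called in either direction, Foxp4, beside 14.3% of genes at that level. Precision falls with the count, so a change of a given size is harder to detect at the bottom of this range. To compare levels between genes, the authors' signal per kb of gene length was used, in which counts are divided by a size factor and a length. On this scale the WT mean of Meis2 was 11837 ± 796 (SD, n = 3) and that of Foxp1 was 8559 ± 308. Next came Bcl11b at 2889 ± 58.8, Foxp2 at 2684 ± 153 and Mef2a at 2575 ± 273, whose ranges over the WT libraries overlapped from one to the next. Myt1l followed at 2103 ± 33.8 and Pbx3 at 1983 ± 21.7. The lowest were Dlx2 at 13.4 ± 6.68, Sp8 at 12.0 ± 2.91 and Six3 at 4.91 ± 1.55, of which Dlx2 and Sp8 overlapped.

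The order at the top depends on the gene length used. The deposited table implies a length of 1.02 kb for Meis2, 1.28 kb for Foxp1 and 1.38 kb for Foxp2. All exons of these genes together span 12.0, 13.8 and 16.4 kb in the GENCODE M21 annotation. With the GENCODE lengths, an alternative added after the data were seen, Bcl11b ranked 1, Meis2 2, Myt1l 3, Foxp1 4 and Foxp2 11. The same 5 members, Bcl11b, Foxp1, Mef2a, Meis2 and Myt1l, were in the highest 6 by either length, and Dlx2, Sp8 and Six3 were the lowest 3 by either.

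**Figure D3:**
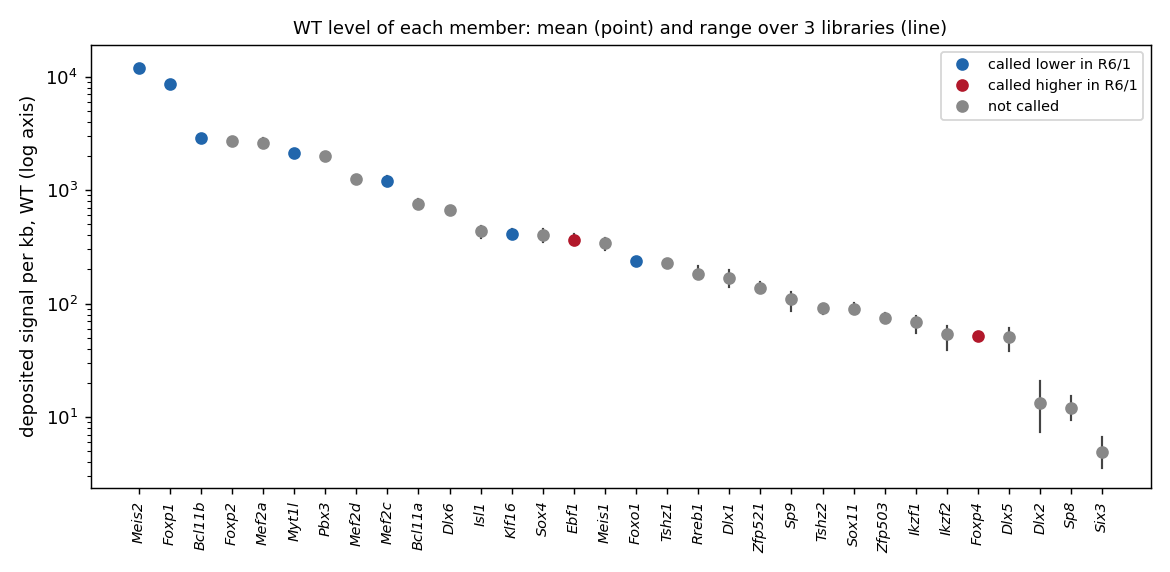
Deposited signal per kb of gene length (y axis, log scale) for the 32 members (x axis), with the WT mean as a point coloured by call and the range over the 3 WT libraries as a line. Meis2 and Foxp1 stand highest, at 11837 and 8559, and Six3 lowest, at 4.91.

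Members of one family were also compared within each library, as the log2 ratio of their counts with 0.5 added, which does not depend on how libraries are scaled. The ratio is not corrected for gene length, so its change and not its level is of interest. For 12 pairs an exact permutation test over libraries was run, two-sided, whose smallest possible p with 3 against 2 libraries is 0.1, so no pair could pass 0.05. In 8 of the 12 pairs the groups did not overlap, and how often other gene pairs do so was not computed. Among single tested genes, 26.9% had both R6/1 libraries below all WT libraries and 27.2% had both above. The count of 8 is therefore not read as a trait of these pairs.

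The ratio of Bcl11a to Bcl11b was -2.08, -1.90 and -2.13 in WT and -1.10 and -1.09 in R6/1, a shift of 0.94 (exact permutation p = 0.1, adjusted over the 12 pairs 0.171). Bcl11b thus stayed the more counted gene in every library, by a smaller margin in R6/1. The ratio of Foxp1 to Foxp4 was 6.09, 6.30 and 6.19 in WT and 5.06 and 5.29 in R6/1, a shift of -1.02. That of Meis1 to Meis2 was -3.77, -3.85 and -3.55 in WT and -3.02 and -2.67 in R6/1, a shift of 0.88. In each of these the scarcer gene made up a larger part of its pair in both R6/1 libraries. This was not so for every pair without overlap. Ikzf1 and Mef2d, the scarcer genes beside Ikzf2 and Mef2a, made up a smaller part in both R6/1 libraries.

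Mef2a to Mef2c changed sign, from -0.20, -0.24 and -0.38 in WT to 0.17 and 0.28 in R6/1, a shift of 0.50. Mef2c thus had more counts than Mef2a in every WT library and fewer in both R6/1 libraries. The shifts of Mef2a to Mef2d, Ikzf1 to Ikzf2 and Sox4 to Sox11 were 0.38, -0.43 and -0.36, also without overlap. All of these had an exact permutation p of 0.1, the smallest possible, and 0.171 after adjustment. Foxp1 to Foxp2 shifted by -0.13 without overlap (exact permutation p = 0.2, adjusted 0.300). The pairs Dlx1 and Dlx2, Dlx5 and Dlx6, Sp8 and Sp9, and Tshz1 and Tshz2 overlapped, with exact permutation p-values of 0.4 to 0.8.

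**Figure D4:**
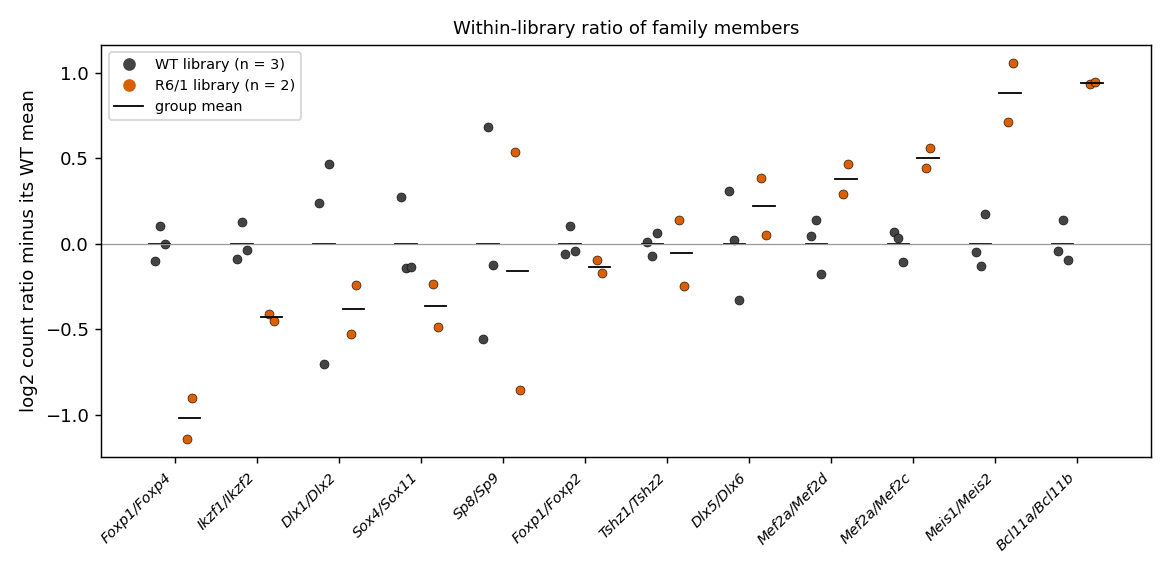
Log2 count ratio minus its WT mean (y axis) for the 12 family pairs (x axis) in each library, with points for WT and R6/1 libraries and lines for group means. The R6/1 mean lies at -1.02 for Foxp1/Foxp4 and at 0.94 for Bcl11a/Bcl11b, beyond all WT points of those pairs.

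Promoter sequence is given for 4 called members, 3 lower and 1 higher, as examples. They were not picked by a rule, and how far they resemble each other was not computed. Windows of 250 bases before the annotated start came from RefSeq on GRCm38.p6, matched by symbol, since the counts were made on mm9. Of the 32 members, 24 had 39 windows between them, against 32851 windows for all genes. Bcl11b (chr12:108003415-108003664, minus strand) and Meis2 (chr2:116064620-116064869, minus strand) were lower in R6/1, as was Foxo1 (chr3:52268087-52268336, plus strand). Foxp4 (chr17:47924633-47924882, minus strand) was higher. Each sequence runs 5′ to 3′ on the strand of the gene, with motif matches in capitals.
Bcl11b: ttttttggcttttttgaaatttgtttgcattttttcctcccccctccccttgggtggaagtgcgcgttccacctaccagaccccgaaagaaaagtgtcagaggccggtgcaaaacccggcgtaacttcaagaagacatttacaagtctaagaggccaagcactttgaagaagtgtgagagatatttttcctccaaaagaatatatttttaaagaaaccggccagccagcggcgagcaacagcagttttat
Meis2: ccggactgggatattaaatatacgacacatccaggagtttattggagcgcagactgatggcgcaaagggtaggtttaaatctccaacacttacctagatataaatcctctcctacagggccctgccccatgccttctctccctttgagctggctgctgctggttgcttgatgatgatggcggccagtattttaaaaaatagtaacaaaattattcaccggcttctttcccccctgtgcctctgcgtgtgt
Foxo1: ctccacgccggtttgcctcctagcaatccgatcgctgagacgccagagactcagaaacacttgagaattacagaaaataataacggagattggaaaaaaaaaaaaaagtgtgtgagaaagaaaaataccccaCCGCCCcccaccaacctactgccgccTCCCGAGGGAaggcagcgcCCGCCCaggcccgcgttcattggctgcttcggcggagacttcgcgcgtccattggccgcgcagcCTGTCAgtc
Foxp4: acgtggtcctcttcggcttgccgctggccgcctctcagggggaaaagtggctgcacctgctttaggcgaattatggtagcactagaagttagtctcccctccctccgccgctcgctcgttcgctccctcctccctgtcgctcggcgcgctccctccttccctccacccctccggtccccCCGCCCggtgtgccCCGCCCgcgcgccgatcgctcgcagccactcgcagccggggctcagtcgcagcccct

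The GC content of these windows was 44.8% for Bcl11b, 47.6% for Meis2, 56% for Foxo1 and 69.6% for Foxp4, beside a median of 52.4% over all windows. Bcl11b and Meis2 held none of the 7 motifs searched, on either strand. Foxo1 and Foxp4, which moved in opposite directions, each held 2 matches to the GC box GGGCGG, the element bound by SP and KLF zinc fingers. Foxo1 also held 1 match to TGACAG, a MEIS site, and 1 to the EBF palindrome.

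Over all member windows the GC box was found in 16 of 39, or 41.0%, against 32.7% of all windows. The homeodomain core TAATTA was in 4 (Foxp1, Mef2c, Myt1l and Sp8), or 10.3% against 4.84%. The EBF palindrome was in 2 (Foxo1 and Rreb1), or 5.13% against 0.779%. TGACAG was in 5, or 12.8% against 15.9%, and the forkhead core TGTTTAC in 1, Myt1l, or 2.56% against 3.17%. The MEF2 consensus was in 1, Rreb1, or 2.56% against 2.92%, and TGACCA, a BCL11 core, was in 0 against 11.4%. Of the 6 lower members with a window, 4 held the GC box, 3 TGACAG and 3 TAATTA, unlike Bcl11b and Meis2. Of the 2 higher ones, 1 held the GC box. Some members have several windows, so windows are not independent, and a match describes letters in these windows and not binding.

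Relatives of the members outside the list were counted in the same way. Of 31 tested relatives from the same families, 6 were lower and 2 higher, and their median log2 fold change was -0.09. The share called in either direction, 25.8%, was near the 22.6% of all tested genes. By direction it was 19.4% lower against 12.8%, and 6.45% higher against 9.72%. These differences were not tested, and the genes named here are read as single results. Klf10, an early response zinc finger gene, fell from 21.8 ± 3.14 to 8.16 ± 1.30 CPM (log2 fold change -1.42, edgeR adjusted p = 0.00208). Klf9, which responds to thyroid hormone and glucocorticoids, was at 501, 302 and 445 CPM in WT and at 190.2 and 190.5 CPM in R6/1 (log2 fold change -1.13, edgeR adjusted p = 0.00813). The Ikaros relative Ikzf3, at 2.07 ± 0.293 CPM in WT, fell to 0.697 ± 0.00555 CPM (log2 fold change -1.56, edgeR adjusted p = 0.00801), and the FOXO relatives Foxo3 and Foxo6 fell, at -0.40 and -0.99, whereas Foxo4, named after its value was seen, was not called, at 0.19 (edgeR adjusted p = 0.370). The higher ones were Ikzf5 (log2 fold change 0.39) and Sp4 (0.36). Without R6/1 replicate 1 or R6/1 replicate 2, 1 relative was lower and 0 were higher, with 11 and 10 at an unadjusted p below 0.05. Without WT replicate 3, 4 were lower and 0 higher, with 10 at an unadjusted p below 0.05. With the choroid plexus covariate 3 were lower and 0 higher, with 9 at that level.

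Among 42 further regulators of forebrain neurons, striatal ones included, 7 were lower and 2 higher, at a median log2 fold change of -0.09. The 21.4% called in either direction was again near the share of all tested genes. Zbtb18, a repressor needed for cortical and striatal neurons to mature, fell from 189 ± 16.2 to 74.3 ± 2.90 CPM (log2 fold change -1.35, edgeR adjusted p = 0.000262). Rxrg, a nuclear receptor that pairs with retinoic acid receptors, fell from 93.2 ± 9.78 to 51.5 ± 1.197 CPM (log2 fold change -0.86, edgeR adjusted p = 0.00206). Hivep2 fell by 0.39 on the log2 scale, while Peg3, an imprinted zinc finger gene, and Sall3 rose by 0.37 and 0.84. The lower regulators not named here had log2 fold changes of -1.33, -1.04, -0.52 and -0.43. Leaving out R6/1 replicate 2 left 4 lower and 0 higher, leaving out R6/1 replicate 1 left 5 lower and 0 higher, and without WT replicate 1, 2 or 3 the number higher was 1, 4 or 1. The choroid plexus covariate left 4 lower and 1 higher.

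Partner proteins of MEF2, FOXP and BCL11 factors are mostly parts of repressor and chromatin remodelling complexes. Of 24 tested, 6 were higher and 2 lower, and the median log2 fold change was 0.10. These shares, 25% higher and 8.33% lower, stood beside 9.72% and 12.8% of all tested genes, a difference that was not tested. Chd3, a helicase of the NuRD complex, was at 429, 496 and 435 CPM in WT and at 911 and 867 CPM in R6/1 (log2 fold change 0.97, SE 0.08, edgeR adjusted p = 0.000511). The R6/1 libraries were far above the WT libraries. Gatad2a, also of NuRD, and Hdac7, a deacetylase that binds MEF2, rose by 0.62 and 0.68 on the log2 scale, and Smarcb1 and Ctbp1 by 0.35 and 0.25. Smarcd1 and Actl6b, subunits of the SWI/SNF-type remodelling complex, fell by 0.52 and 0.37. Over all genes, 5.45%, 13.2% and 4.84% were called higher without WT replicate 1, 2 or 3. Among the 24 partner genes, the number higher also depended on single libraries. It was 8 without WT replicate 2, 2 without WT replicate 1, 1 without WT replicate 3, 1 without R6/1 replicate 1 and 1 without R6/1 replicate 2. The number lower was 1 without WT replicate 3 or R6/1 replicate 1 and 0 without R6/1 replicate 2. With library totals alone 9 were higher and 1 lower, beside 18.8% and 9.85% of all genes. Without WT replicates 1 and 2 together 0 were lower and 5 higher, and with the choroid plexus covariate 0 were lower and 2 higher, with 13 and 10 at an unadjusted p below 0.05 by edgeR.

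Of 10 antisense or overlapping partner genes of members, 3 were found. Dlx6as1, a long non-coding RNA read from the strand opposite Dlx6, was at 92.1, 86.9 and 93.2 CPM in WT and at 56.9 and 45.7 CPM in R6/1. All R6/1 values were well below all WT values, in contrast to Dlx6 itself. The mean fell 1.77-fold, from 90.7 ± 3.36 to 51.3 ± 7.86 CPM (log2 fold change -0.82, SE 0.11, edgeR adjusted p = 0.00289). Dlx1as and Six3os1 were not called, at -0.91 (edgeR adjusted p = 0.130) and 0.16 (0.501). The libraries were made with a stranded kit, but the strand setting of the counting is not stated, so reads of an overlapping pair may not have been told apart.

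The log2 fold changes of the medium spiny neuron genes ran from -3.88 to -0.66 and those of the members from -0.99 to 0.80, a difference between lists that was not tested. Markers of other cells that the dissection could hold are given as measured. Over all tested genes 12.8% were lower and 9.72% higher, the shares beside which the calls below stand. Without WT replicate 1, 2 or 3, 10.1%, 14.9% and 9.75% of all genes were lower. The 12 cortical projection neuron genes summed to 178 to 483 CPM in WT and 171 to 254 CPM in R6/1. By edgeR none was called, 1 had an unadjusted p below 0.05, and DESeq2 and limma-voom called 0, but 2 were lower without WT replicate 1. The median log2 fold change of these 12 was -0.68, with 9 below 0 and 3 above. Over the analyses tried, that median ran from -1.44 to -0.20. GABAergic interneuron genes were at 159.7 to 218 CPM in WT and 122 to 124 CPM in R6/1, with 5 of 10 lower. The median log2 fold change of these 10 was -0.75. The number lower was 3 without WT replicate 3 and 2 without either R6/1 library, and 7 without WT replicate 1. Astrocyte genes were at 4146 to 4435 CPM against 2934 to 3094 CPM, with 3 of 8 lower and 1 higher. The median log2 fold change of these 8 was -0.38. Without WT replicate 2 the number lower was 5, without WT replicate 1 or 3 it was 2, and without R6/1 replicate 1 or R6/1 replicate 2 it was 1, the number higher being 0 without R6/1 replicate 1. Oligodendrocyte genes were at 4981 to 6913 CPM against 4836 to 5019 CPM, with 3 of 8 lower and a median log2 fold change of 0.07. The number lower was 1 without WT replicate 1 and 0 by edgeR without WT replicate 3, R6/1 replicate 1 or R6/1 replicate 2, with 3, 2 and 2 at an unadjusted p below 0.05, and the median was -0.02 without WT replicate 2. Genes of neighbouring subcortical tissue were at 35.4 to 57.8 CPM against 29.4 to 41.3 CPM. The median log2 fold change of the 7 tested was -0.31, and it ran from -0.78 to 0.04 over the analyses tried. By edgeR 0 of the 7 tested were called and 1 had an unadjusted p below 0.05, and DESeq2 and limma-voom called 0, while 1 was lower without WT replicate 3. No marker gene of these lists was without counts in all libraries. The part of these shifts in the members' levels was not tested.

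**Figure D5:**
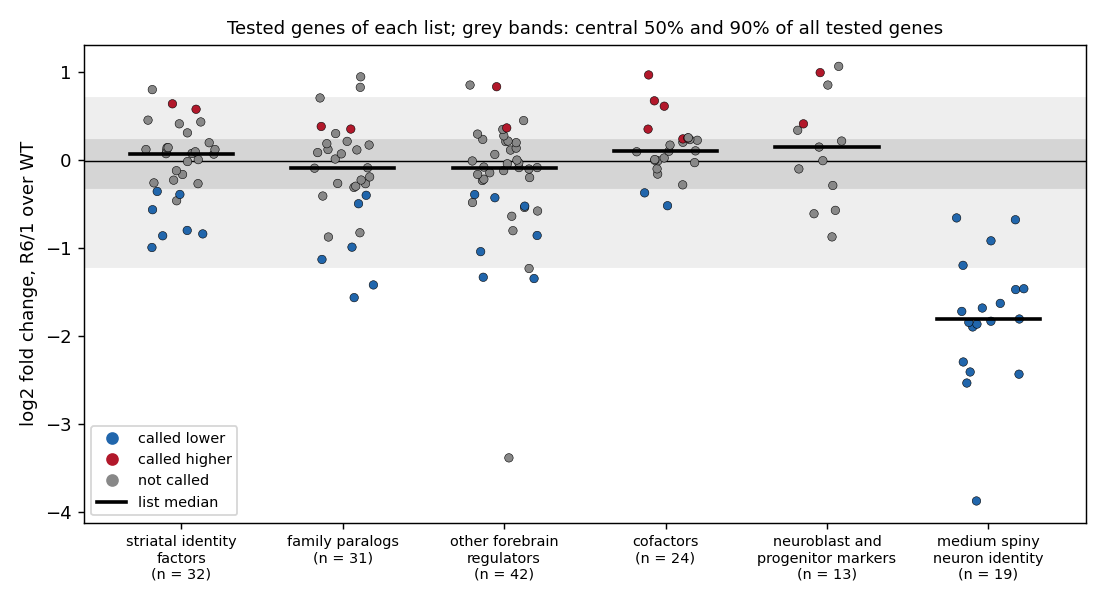
Log2 fold change of R6/1 over WT (y axis) for each tested gene of 6 lists (x axis), coloured by call, with lines for list medians and grey bands for the central 50% and 90% of all tested genes. The 32 members spread on both sides of 0, with a median of 0.07, while all 19 medium spiny neuron genes lie below 0.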

How the data were processed

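Per the labels' protocols, total RNA was depleted of ribosomal RNA and made into stranded libraries with random primers and PCR. Per the submitters' processing notes, the build was mm9 and the tools were DESeq2 1.0.19, HTSeq 0.5.4p3, TopHat 1.4.1 and CASAVA 1.8.2. The sources used here do not give the annotation release, how strand was counted or how gene length was defined. Per the file headers, the authors' table holds raw counts for each Ensembl gene. It also holds a signal that the authors made from counts and size factors, as such and divided by gene length in kb. Log2 fold changes and p-values of the authors' comparison were deposited too and are quoted only under that name.

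Counts of the whole table were fitted with edgeR 4.0.16 in R 4.3.3 (quasi-likelihood F test, TMM, filterByExpr with a minimum count of 10 and a total of 15, genotype alone), and 17202 of 26369 genes were tested. A gene was called where its p, adjusted over all of them by Benjamini and Hochberg, was below 0.05. Means are given with n = 3 WT and n = 2 R6/1 libraries, and the SE is the one implied by the F statistic. A single count stood for 0.0277 to 0.0527 CPM. Libraries of a group differed beyond sampling noise (chi-square of 12.3 to 22.6 for each gene on average). Alternatives were RLE or no normalization, no filter, DESeq2 1.42.0, limma-voom (limma 3.58.1), leaving out each library, leaving out WT replicates 1 and 2, a choroid plexus covariate and, for pair ratios, a pseudocount of 2. The fitting steps were tested on simulated data.

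The members, the gene lists and the tests were chosen with earlier results of these data known, so a list's direction is no independent evidence. All members found were named. From each list of related regulators at most the 5 called genes with the smallest adjusted p in each direction could be named. Replicates were numbered in accession order, and these numbers pair no libraries. Promoter windows and motif matches were read from RefSeq sequence on GRCm38.p6, and in 32 of 39 member windows the 20 bases after the start lay in a transcript of the gene.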

Additional observations from a re-analysis of the deposited data

How the results depend on the processing

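The limits are the small groups, the depth that goes with genotype and the choroid plexus genes of WT replicates 1 and 2. Leaving out each library in turn gave 4 to 7 members lower and 0 to 2 higher, 776 to 2576 of all genes lower and 280 to 2277 higher, and a member median of -0.00965 to 0.056, negative without R6/1 replicate 1. With the choroid plexus covariate 4 members were lower and 0 higher, and 1157 and 552 of all genes. With library totals alone 5 members and 3237 of all genes were higher and the member median was 0.19. Without WT replicates 1 and 2 together 1 member was higher. The causes of these shifts were not tested. RLE normalization and no filter on low counts changed no member's call or direction.

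Members that changed sign under an alternative were all uncalled. Leave-one-out log2 fold changes ran from -0.028 to 0.30 for Ikzf2, -0.041 to 0.19 for Zfp503, -0.017 to 0.39 for Dlx5, -0.049 to 0.035 for Dlx6, -1.07 to 0.44 for Sp8, -0.013 to 0.17 for Zfp521, -0.25 to 0.40 for Sox4, -0.039 to 0.042 for Tshz1 and -0.12 to 0.24 for Tshz2. The shift in ratio ran from -0.86 to 0.53 for Sp8 to Sp9 and from -0.25 to 0.14 for Tshz1 to Tshz2. Dlx6 was at 0.10 with library totals alone, 0.0028 by DESeq2, 0.050 without WT replicates 1 and 2 and 0.057 with the covariate. Sp8 was at 0.11 with the covariate and Six3 at -0.0053 without WT replicates 1 and 2. No paired analysis was possible because the labels give the libraries no shared replicate numbers.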
